A study of Mus musculus with 4 samples.

Results

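DC3 is the name that the deposited cell table gives to a cluster of CCR7+ mature dendritic cells (DCs), and the cells described here are those that carry it, 191 of 34447 cells in all. The table comes from CD45+ live cells sorted from YUMM1.7OVA RTT melanomas, grown from a mouse line that carries Braf V600E, lacks Cdkn2a, was selected for resistance to targeted drugs and makes ovalbumin as a model antigen. All tumours grew in Rag2-/- mice, which have no T or B cells of their own, all received OT-1 CD8+ T cells, which recognise ovalbumin, by adoptive cell transfer (ACT) on day 7, and all were taken on day 10, 72 h later. In the CTRL group the line carried an empty mCherry vector, in the COX2i group mice with the mCherry line received celecoxib, an inhibitor of cyclooxygenase 2, and in the COX2i + 5-AZA group they received celecoxib and 5-azacytidine, an inhibitor of DNA methyltransferases. In the IRF3/7 group the cancer cells overexpressed IRF3 and IRF7 from vectors driven by the SFFV promoter and were sorted in bulk, so the host immune cells did not carry the vectors by design. Each group was 1 library made from a pool of 3 tumours, so no difference below has been checked in a replicate, and intervals in parentheses are exact 95% intervals that cover counting error only.

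Mature CCR7+ DCs arise when conventional DCs, either the cross-presenting cDC1 or the cDC2 that are known for priming CD4+ T cells, take up antigen and sense danger. CCR7 guides them along CCL19 and CCL21 towards lymph nodes, and they combine strong antigen presentation and co-stimulation with regulatory molecules such as PD-L1. Within tumours they also secrete chemokines, among them CCL17 and CCL22, which attract CCR4+ T cells including regulatory T cells, CCL5, which attracts T cells and monocytes, and CXCL9 and CXCL10, which attract CXCR3+ T cells and NK cells.

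The libraries differed in depth, with medians from 3168 UMIs per cell in IRF3/7 to 7502 in COX2i. DC3 were closer to each other, with medians of 4047.5 UMIs in CTRL, 4028.5 in COX2i, 4048 in COX2i + 5-AZA and 2834.5 in IRF3/7. Summed over DC3 the libraries held 43970, 110464, 402161 and 207940 UMIs in that order, and a level is the sum of a gene's UMIs in counts per 1000000 of these (CPM). A count of 3 UMIs, the limit that a count of 0 allows, corresponded to 68.2 CPM in CTRL, 27.2 in COX2i, 7.46 in COX2i + 5-AZA and 14.4 in IRF3/7, so the CTRL values rest on few molecules. No cell name was shared by libraries, but 10018 cells (29.1% of all), 58 DC3 among them, came from droplets that also gave a cell of another library.

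The targeted genes were examined first. Irf7 stood at 14909 CPM in the non-immune class named Myofibrobl of the IRF3/7 library, which holds cells that passed the CD45 sort without being immune cells by name, against 67.1 CPM in that class of COX2i + 5-AZA, and Irf3 at 584 against 24.5 CPM. In DC3 of the IRF3/7 library Irf3 was at 33.7 CPM (7 UMIs), next to 32.3 CPM in COX2i + 5-AZA. A higher Irf3 was thus not detectable in DC3 at this depth, whereas Irf7, which is itself an interferon-stimulated gene, was higher there and is described with that group. For each Irf3 UMI, DC3 of IRF3/7 held 50.6 (24.3 to 127) Irf7 UMIs, cDC2 60.0 (46.9 to 78.1), Infl_Mono, the class of inflammatory monocytes, 76.7 (71.0 to 83.0) and Myofibrobl 25.5 (24.6 to 26.6). In DC3 of the libraries without the vectors it was 9.50 (2.29 to 84.1) in CTRL, 30.0 (7.95 to 253) in COX2i and 11.5 (6.55 to 22.2) in COX2i + 5-AZA, so the DC3 ratio of IRF3/7 could be set apart from COX2i + 5-AZA but not from CTRL or COX2i at this depth.

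The label was checked against the 6 markers given for the class, namely Ccr7, Ccl22, Il4i1 (an amino acid oxidase), Il12b (the p40 subunit of IL-12 and IL-23), Cacnb3 (a calcium channel subunit) and Fscn1 (fascin, which bundles actin in mature DCs). All 191 DC3 had a UMI of at least 1 marker, 188 of at least 2, 171 of at least 3 and 24 of all 6. At least 3 markers were found in 1 of 193 cDC1, in 4 of 1962 cDC2 and in 0 of 1066 NK cells. The exception was Myofibrobl, where 30 of 1799 cells had 3 or more and Fscn1 stood between 191 and 365 CPM. None of the 66 IRF3/7 DC3 had all 6 markers, against 16 of 87 in COX2i + 5-AZA (18.4%), 6 of 28 in COX2i and 2 of 10 in CTRL. At an equal 1500 UMIs per cell the share with all 6 was 0% of 62 cells in IRF3/7, 7.63% of 85 in COX2i + 5-AZA, 15.9% in COX2i and 15.5% in CTRL. The summed level of the 6 markers was 14533 CPM in CTRL, 15779 in COX2i, 17461 in COX2i + 5-AZA and 11407 in IRF3/7. The class was made from these genes, so the check describes the label and tests nothing.

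**Figure D1:**
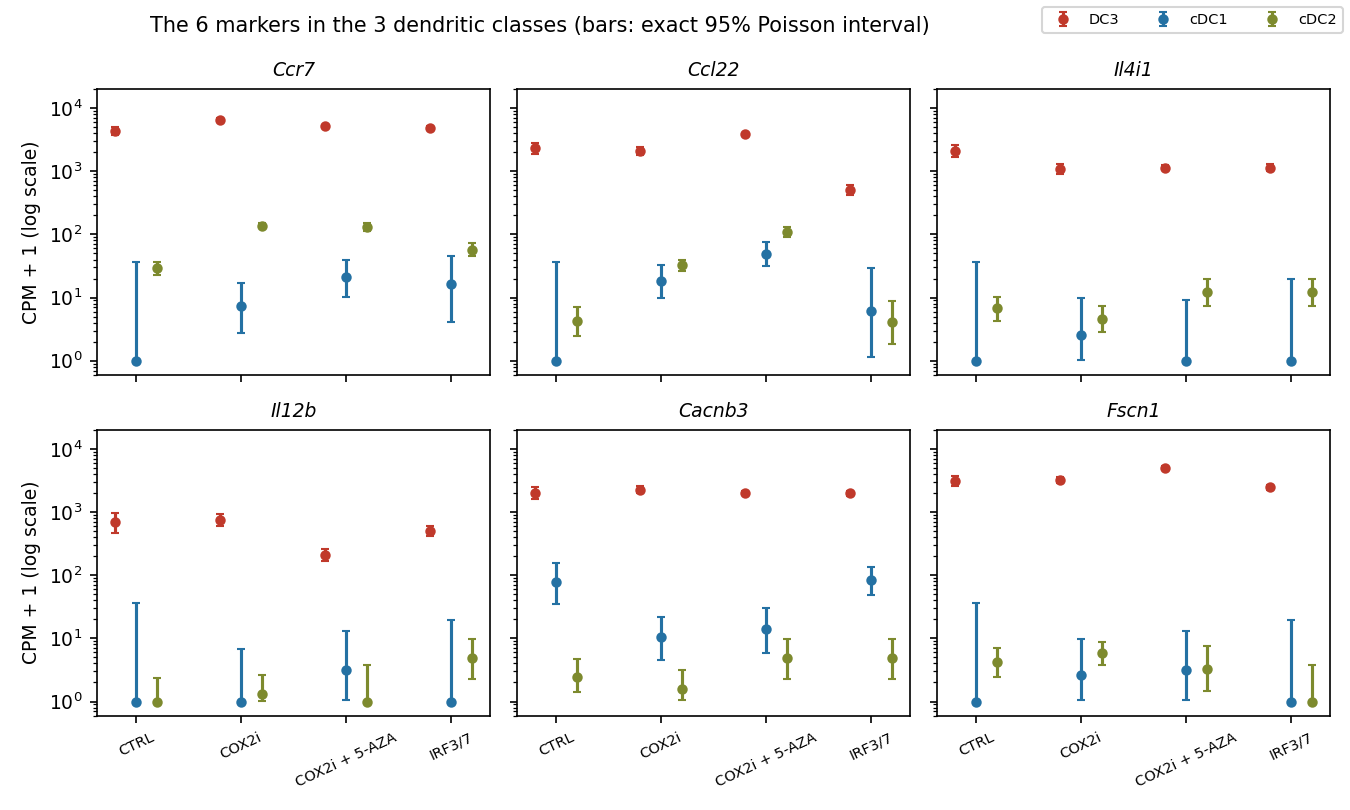
CPM + 1 on a log axis for each of the 6 markers in DC3 (red), cDC1 (blue) and cDC2 (green) of the 4 libraries, with exact 95% Poisson intervals. DC3 lie above both other classes for every marker in every library, and Ccl22 in DC3 is lowest in IRF3/7, at 505 CPM.

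DC3 were rarest in CTRL and most frequent in IRF3/7 and COX2i + 5-AZA. They made up 0.112% (0.0536 to 0.205) of CTRL cells, 10 of 8953, and 0.307% (0.204 to 0.443) of COX2i cells, 28 of 9133. In COX2i + 5-AZA they made up 0.867% (0.695 to 1.07), 87 of 10032, and in IRF3/7 1.04% (0.807 to 1.32), 66 of 6329. The last pair overlapped, with a ratio of IRF3/7 over COX2i + 5-AZA of 1.20 (0.860 to 1.68). The share in COX2i stood 2.74-fold (1.29 to 6.33) above that in CTRL, and the share in COX2i + 5-AZA 2.83-fold (1.83 to 4.50) above that in COX2i.

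Among the 3 dendritic classes the order of the upper pair was the other way round. DC3 were 1.49% (0.717 to 2.72) of 671 dendritic cells in CTRL, 3.62% (2.42 to 5.19) of 773 in COX2i, 21.3% (17.4 to 25.6) of 408 in COX2i + 5-AZA and 13.4% (10.5 to 16.7) of 494 in IRF3/7. Here the ratio of IRF3/7 over COX2i + 5-AZA was 0.627 (0.448 to 0.873). The denominators differed between these libraries, since cDC2 made up 2.60% of COX2i + 5-AZA cells against 6.16% in IRF3/7, 7.20% in CTRL and 7.29% in COX2i. The spread between tumours is unknown for both denominators.

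**Figure D2:**
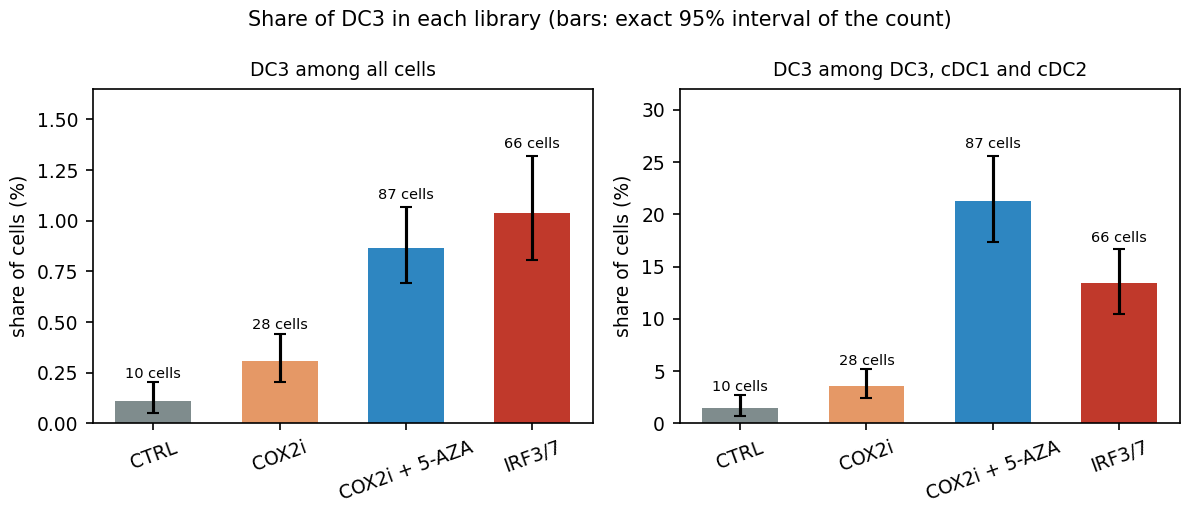
Share of DC3 in percent of all cells (left) and of DC3, cDC1 and cDC2 together (right) in the 4 libraries, with exact 95% intervals of the count and the number of cells above each bar. Shares are highest in IRF3/7 (1.04%) and COX2i + 5-AZA (0.867%) on the left, while on the right COX2i + 5-AZA (21.3%) stands above IRF3/7 (13.4%).

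The genes that set DC3 apart from the other dendritic classes are given as a description with no test, since the classes were clustered on them. A gene was counted when it was past 2-fold in the same direction in IRF3/7, COX2i and COX2i + 5-AZA, each library compared with itself. Against cDC1, 227 of 1668 genes (13.6%) were higher in DC3 and 163 (9.77%) lower. Against cDC2, 270 of 4755 (5.68%) were higher and 400 (8.41%) lower.

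Genes of the maturation programme were among those higher in DC3. Of 9 genes for migration and the cytoskeleton, 7 were higher against cDC1 and 7 against cDC2. NF-kB genes, whose products transmit and restrain the signal that drives maturation, were higher for 10 of 14 against cDC1 and 9 of 16 against cDC2. Co-stimulatory genes were higher for 4 of 6 and 5 of 9, and regulatory genes for 4 of 5 and 4 of 5. The largest ratios against cDC1 were those of Ccr7, Fscn1, Ccl22, Il4i1, Ccl5, Mreg, Fabp5 and Samsn1, and against cDC2 those of Fscn1, Cacnb3, Cd200, Mreg, Il4i1, Il12b, Strip2 and Ccr7. Ccr7, for example, was at 4321 CPM in CTRL, 6382 in COX2i, 5214 in COX2i + 5-AZA and 4838 in IRF3/7, whereas cDC2 of these libraries held 28.0, 135, 132 and 56.4 CPM. Cd200, the ligand of an inhibitory receptor on myeloid cells, was at 274 to 500 CPM in DC3 and at no more than 1.53 CPM in cDC2.

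Each conventional DC class held more of its own lineage genes than DC3. Of 11 cDC1 genes 9 were lower than in cDC1, among them Xcr1, a chemokine receptor that marks cDC1, which stood at 91.0, 36.2, 12.4 and 0 CPM in DC3 of CTRL, COX2i, COX2i + 5-AZA and IRF3/7 against 445, 679, 763 and 372 CPM in cDC1. Of 13 cDC2 genes 8 were lower than in cDC2, and Cd209a, a lectin of cDC2, was at 0 to 91.0 CPM against 83.9 to 581. Against the other class the lists did not fall together, with 2 of 4 cDC2 genes higher than in cDC1 and none lower, and 2 of 5 cDC1 genes higher and 2 lower than in cDC2. Of the MHC class II genes, 3 of 8 were lower than in cDC1, 4 of 11 lower than in cDC2 and none higher. Of the type I interferon genes, 0 of 4 against cDC1 and 0 of 14 against cDC2 were past 2-fold in all 3 libraries in either direction, counts too small to set apart from the shares of all genes given above. Their levels differed by library. The median log2 ratio of DC3 over cDC2 was 1.30 in COX2i and -0.54 in IRF3/7 and in COX2i + 5-AZA. Over cDC1 it was 1.11, -0.16 and -0.31 in that order. The listed genes summed to 2866, 3739, 2434 and 13586 CPM in DC3 of CTRL, COX2i, COX2i + 5-AZA and IRF3/7. In cDC2 they summed to 751, 1189, 2983 and 17413 CPM, and in cDC1 to 339, 863, 2058 and 11428 CPM.

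The main comparison was between IRF3/7 and COX2i + 5-AZA, the libraries with the most DC3, and asked how DC3 differed between tumours whose cancer cells overexpressed interferon regulatory factors and tumours exposed to celecoxib and 5-azacytidine. These arms differ in the cancer cells and in the drugs at once, and the part of each cannot be told apart. Genes of the type I interferon list that had enough UMIs were higher in DC3 of IRF3/7, Ccl17, Ccl22 and Cxcl9 were lower and Ccl5 was higher. The study's list of CCR7+ DC genes lay within 2-fold, as did most genes tested. Of 2556 genes with 50 UMIs or more over both libraries, 159 (6.22%) were past 2-fold higher in IRF3/7 and 189 (7.39%) lower, and the median log2 ratio over all of them was -0.05. Since UMIs were summed over both libraries, a gene with few UMIs in 1 library entered only by being higher in the other, so the choice of members favours differences among low genes. Counts of genes past 2-fold in the lists below are therefore descriptions of the members that entered. In cDC2 the same counts were 300 of 6614 (4.54%) and 446 (6.74%).

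**Figure D3:**
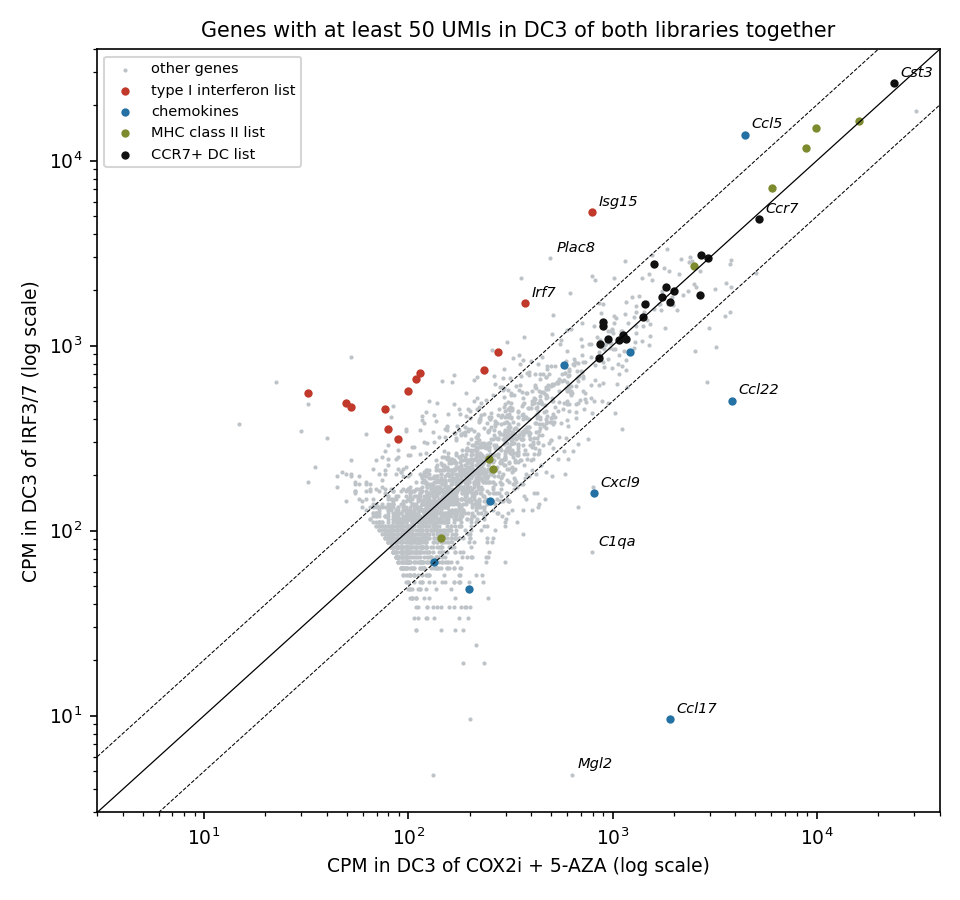
CPM in DC3 of IRF3/7 against CPM in DC3 of COX2i + 5-AZA, both on log axes, for the 2556 genes with 50 UMIs or more over both libraries. The solid line is a ratio of 1 and the dashed lines are 2-fold, the type I interferon genes lie above the upper dashed line, the CCR7+ DC genes lie between the lines, and Ccl17 (1922 against 9.62 CPM) lies farthest below.

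Chemokines showed the largest single difference. The list held 15 genes, of which 13 were in the table and 9 had enough UMIs. Of these, 1 was past 2-fold higher in IRF3/7 (Ccl5) and 4 lower (Ccl17, Ccl22, Cxcl2 and Cxcl9), with a median log2 ratio of -1.0. That median was -0.38 with each cell given the same weight and -0.27 without DC3 above 2 times the median UMIs of their library. Of all genes tested, 6.22% were past 2-fold higher and 7.39% lower. Only 4 of the 9 (Ccl22, Ccl5, Cxcl10 and Cxcl16) reached the UMI minimum in the library where they were lower. Of these 4, 1 was past 2-fold higher in IRF3/7 and 1 lower. Ccl17, Cxcl2 and Cxcl9 entered only through COX2i + 5-AZA, so the split and the median describe the members that entered.

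Ccl17 and Ccl22, ligands of CCR4, are neighbours on the plus strand of chromosome 8 (GRCm38), Ccl22 (ENSMUSG00000031779) at chr8:94745590-94751699 and Ccl17 (ENSMUSG00000031780) at chr8:94810453-94812036, with 58.8 kb between them. Ccl17 was at 1365 CPM (1041 to 1756) in CTRL, 1267 (1066 to 1496) in COX2i, 1922 (1789 to 2063) in COX2i + 5-AZA and 9.62 (1.16 to 34.7) in IRF3/7. IRF3/7 was the only library in which it was near the floor, with 2 UMIs against 773 in COX2i + 5-AZA, a log2 ratio of -7.64 (-10.69 to -5.78). Ccl22 was at 2297 CPM (1871 to 2791), 2091 (1830 to 2379), 3859 (3670 to 4056) and 505 (413 to 611) in the same order, a log2 ratio of IRF3/7 over COX2i + 5-AZA of -2.93 (-3.23 to -2.65), or 7.64-fold lower. IRF3/7 again stood below the other 3 libraries, with no overlap of the intervals, but Ccl22 was still detected.

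The low Ccl17 of IRF3/7 was a matter of nearly all its DC3. The gene had no UMI in 65 of 66 DC3 of IRF3/7, against 37 of 87 in COX2i + 5-AZA, 16 of 28 in COX2i and 7 of 10 in CTRL. Because IRF3/7 was shallower, the share of cells with a Ccl17 UMI was also taken at 1500 UMIs per cell, where it was 49.2% in COX2i + 5-AZA, 34.2% in COX2i and 0.991% in IRF3/7 (57.5%, 42.9% and 1.52% as measured). NK cells, which should lack Ccl17, had a UMI in 0.458% of 437 cells in COX2i + 5-AZA (median 2606 UMIs) and in 0 of 568 in IRF3/7 (median 2674.5 UMIs), so the IRF3/7 share was near background and those of COX2i + 5-AZA and COX2i were not. CTRL, with 10 DC3, was left out of this comparison. Single cells weighed on the small libraries, since 1 cell held 65.0% of the Ccl17 UMIs of COX2i and 1 held 88.3% of those of CTRL. Ccl22 had no UMI in 34 of 66 DC3 of IRF3/7, 8 of 87 in COX2i + 5-AZA, 6 of 28 in COX2i and 1 of 10 in CTRL.

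In cDC2 both chemokines were also lower in IRF3/7 than in COX2i + 5-AZA, as were 6.74% of the genes tested there. Ccl17 was at 62.1 CPM in CTRL, 421 in COX2i, 641 in COX2i + 5-AZA and 2.29 in IRF3/7, where 3 UMIs came from 1 of 390 cells, a log2 ratio of IRF3/7 over COX2i + 5-AZA of -8.13. Ccl22 in cDC2 was at 3.23 CPM (1.48 to 6.13) in CTRL, 31.3 in COX2i, 108 in COX2i + 5-AZA and 3.05 (0.831 to 7.81) in IRF3/7, a ratio of -5.15. In cDC2 Ccl17 was thus lowest in IRF3/7, whereas Ccl22 of IRF3/7 was below the celecoxib-treated libraries but not separable from CTRL. Against COX2i, which shares the mCherry line but received celecoxib alone, Ccl17 in DC3 of IRF3/7 had a log2 ratio of -7.04 (-10.10 to -5.16) and Ccl22 of -2.05 (-2.40 to -1.71). Without the highest cell of each library IRF3/7 held 0 Ccl17 UMIs, and with the floor of 3 UMIs in their place the ratio was -4.96 or below against COX2i and -6.88 or below against COX2i + 5-AZA.

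Ccl5 went the other way. Its level was 10393 CPM (9462 to 11391) in CTRL, 7550 (7046 to 8080) in COX2i, 4441 (4237 to 4652) in COX2i + 5-AZA and 13841 (13339 to 14356) in IRF3/7, a log2 ratio of IRF3/7 over COX2i + 5-AZA of 1.64 (1.55 to 1.73). COX2i + 5-AZA was lowest and IRF3/7 highest, with CTRL nearer to IRF3/7. The median over cells was 80.5 UMIs per 10000 in IRF3/7 and 83.4 in CTRL, against 22.7 in COX2i + 5-AZA and 21.3 in COX2i, where 1 cell held 48.7% of the UMIs. NK cells, which also express Ccl5, held 2255 CPM in IRF3/7 and 4180 in COX2i + 5-AZA, and cDC1 10.2 and 75.2 CPM.

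The CXCR3 ligands differed from each other. Cxcl9, which is driven mainly by interferon-γ, was at 1114 CPM in CTRL, 389 in COX2i, 813 in COX2i + 5-AZA and 159 in IRF3/7, a log2 ratio of IRF3/7 over COX2i + 5-AZA of -2.36 (-2.92 to -1.84). The CTRL value came from 1 of 10 cells. Cxcl10, which answers type I interferon as well, was at 569, 109, 579 and 784 CPM, a log2 ratio of 0.44 (0.14 to 0.73) that stayed within 2-fold. Among the other inflammatory chemokines, Cxcl2 had 48.1 CPM in IRF3/7 against 199 in COX2i + 5-AZA (-2.05, or -1.16 without the highest cell of each library), Ccl3 67.3 against 134 (-1.0, or -0.21 with equal weight per cell) and Ccl4 144 against 251 (-0.80, or 0.24 without those cells). Cxcl16, a membrane-bound ligand of CXCR6, had 928 against 1223 CPM (-0.40).

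**Figure D4:**
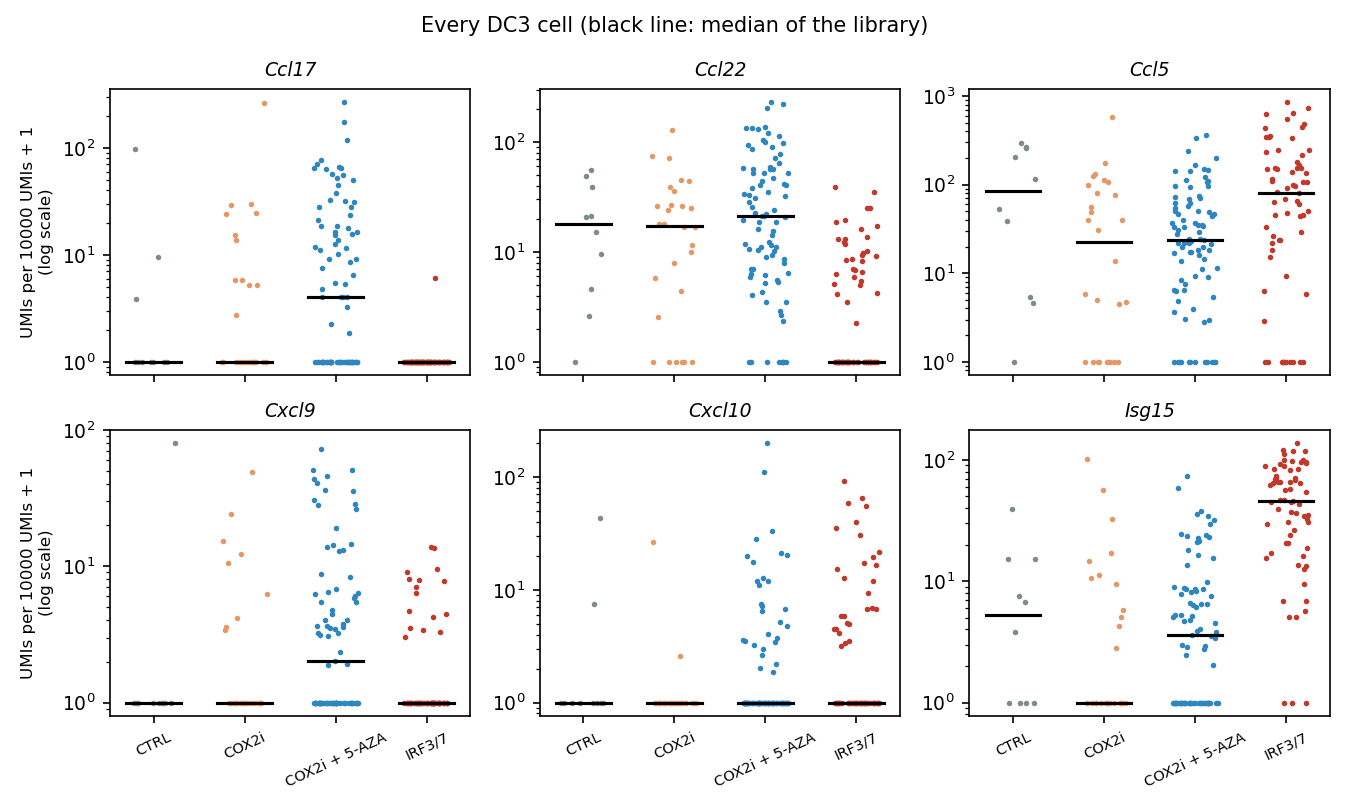
UMIs per 10000 UMIs, plus 1, on a log axis, for Ccl17, Ccl22, Ccl5, Cxcl9, Cxcl10 and Isg15 in every DC3 cell of the 4 libraries, where each point is a cell and the black line is the median. Ccl17 is at 0 in 65 of 66 IRF3/7 cells, and Isg15 has a median of 45.2 in IRF3/7 against 2.60 in COX2i + 5-AZA.

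Genes of the type I interferon list differed in 1 direction. Type I interferon signals through IFNAR, STAT2 and IRF9 to promoters with an interferon-stimulated response element (ISRE) and induces antiviral effectors and the regulator IRF7. The list held 18 genes, 16 in the table and 13 with enough UMIs, and the 13 that entered were past 2-fold higher in DC3 of IRF3/7, with log2 ratios from 1.66 (Oasl2) to 4.11 (Ifit3) and a median of 2.57, beside 6.22% of all genes. Of the 13, 9 entered only through their UMIs in IRF3/7, and 4 (Irf7, Isg15, Oasl2 and Zbp1) had 50 UMIs or more in COX2i + 5-AZA alone. The other 3 in the table, Ifi44, Cmpk2 and Siglec1, had fewer than 50 UMIs in both libraries together and were not counted.

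Isg15 (ENSMUSG00000035692, chr4:156199424-156200818, minus strand), a ubiquitin-like modifier, was at 819 CPM (573 to 1133) in CTRL, 1095 (909 to 1309) in COX2i, 798 (713 to 890) in COX2i + 5-AZA and 5261 (4954 to 5582) in IRF3/7. IRF3/7 stood 6.59-fold above COX2i + 5-AZA, a log2 ratio of 2.72 (2.54 to 2.90), and the other libraries lay close together. Isg15 had no UMI in 3 of 66 DC3 of IRF3/7, against 35 of 87 in COX2i + 5-AZA, 16 of 28 in COX2i and 4 of 10 in CTRL. At 1500 UMIs per cell the share of DC3 with an Isg15 UMI was 93.7% in IRF3/7 and 42.6% in COX2i + 5-AZA (95.5% and 59.8% as measured). NK cells, which also answer interferon and so give no background level, had a UMI in 55.0% and 20.3% at that depth (68.8% and 30.7% as measured, with medians of 2674.5 and 2606 UMIs). Irf7 was at 432, 543, 373 and 1702 CPM in the same order of libraries (log2 ratio 2.19, 1.91 to 2.48).

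The other antiviral genes were also highest in IRF3/7, while among the remaining libraries Ifit3, Ifit1 and Rsad2 varied more than Ifit2, Usp18 and Zbp1. Ifit3, one of the IFIT proteins that bind foreign RNA, was at 68.2 CPM in CTRL, 344 in COX2i, 32.3 in COX2i + 5-AZA and 558 in IRF3/7 (log2 ratio of IRF3/7 over COX2i + 5-AZA 4.11, 3.28 to 5.06, or 5.29 without the highest cell of each library). Ifit1 was at 227, 226, 52.2 and 466 CPM (3.16, or 4.43 without those cells) and Ifit2 at 45.5, 72.4, 49.7 and 491 CPM (3.30). Rsad2 (viperin) was at 68.2, 299, 114 and 712 CPM (2.64), and Usp18, which removes ISG15 and restrains IFNAR signalling, at 114, 163, 109 and 664 CPM (2.60). Zbp1, a sensor of left-handed nucleic acid, was at 273, 217, 274 and 928 CPM (1.76). The CTRL levels of Ifit3 and Rsad2 rest on 3 UMIs each, the floor.

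Of the 10 genes with the largest ratios among those with 100 UMIs or more, 9 are known as interferon-regulated and the other, Chil3, is described with the monocyte genes below. Ifit1bl1 was at 353 CPM in COX2i, 22.4 in COX2i + 5-AZA and 640 in IRF3/7 (log2 ratio 4.84, 3.87 to 6.0), Slfn4 at 27.2, 52.2 and 870 CPM (4.06, 3.40 to 4.79, or 5.73 without DC3 of high UMI count and 4.91 without the highest cells), and Ifi27l2a at 453, 358 and 2308 CPM (2.69, 2.42 to 2.97). Ifit, Gbp, Oas, Slfn and H2 genes belong to families with close copies whose probes were not checked against each other, so their values are uncertain to that extent. In cDC2, which held more UMIs, the type I list was past 2-fold higher for 16 of 16 genes, 14 of them with 50 UMIs or more in COX2i + 5-AZA alone, beside 4.54% of all genes, with a median of 2.66. In cDC1 the median was 2.53 over the 13 genes that entered, of which 5 had that number in COX2i + 5-AZA.

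The promoters of 6 chemokine and interferon-stimulated genes described above are shown to set those with large ratios beside Cxcl10, which stayed within 2-fold, and were chosen after their values were seen. They are as RefSeq gives them for GRCm38.p6, cut where the annotated gene begins and written 5′ to 3′ on the gene's strand. Capitals mark matches, on either strand, to a core of the ISRE (GAAANNGAAA, or TTTCNNTTTC) or of the NF-kB motif (GGGANNNNCC, or GGNNNNTCCC). Ccl17 (chr8:94810203-94810452, plus strand) held neither, Ccl22 (chr8:94745434-94745589, plus) held an NF-kB core whose first base lay at -131, counted from the RefSeq start, and Isg15 (chr4:156200819-156201068, minus) held 3 overlapping ISRE cores from -78. Ifit1 (chr19:34640639-34640870, plus) held ISRE cores at -104 and -85, Cxcl9 (chr5:92328080-92328329, minus) an NF-kB core at -130, and Cxcl10 (chr5:92348890-92349139, minus) an ISRE core at -213 and NF-kB cores at -159 and -103.
Ccl17: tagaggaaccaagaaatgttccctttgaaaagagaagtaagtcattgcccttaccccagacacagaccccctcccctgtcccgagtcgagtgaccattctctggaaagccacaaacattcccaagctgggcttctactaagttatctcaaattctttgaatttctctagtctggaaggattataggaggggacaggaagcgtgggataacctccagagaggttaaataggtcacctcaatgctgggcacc
Ccl22: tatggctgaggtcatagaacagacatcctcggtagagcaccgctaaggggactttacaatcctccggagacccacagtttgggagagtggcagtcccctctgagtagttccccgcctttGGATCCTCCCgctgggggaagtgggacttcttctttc
Isg15: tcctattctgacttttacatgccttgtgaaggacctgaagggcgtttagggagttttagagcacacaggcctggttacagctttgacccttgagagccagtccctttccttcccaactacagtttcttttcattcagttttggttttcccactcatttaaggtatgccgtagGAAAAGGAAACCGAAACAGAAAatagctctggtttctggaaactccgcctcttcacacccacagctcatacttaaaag
Ifit1: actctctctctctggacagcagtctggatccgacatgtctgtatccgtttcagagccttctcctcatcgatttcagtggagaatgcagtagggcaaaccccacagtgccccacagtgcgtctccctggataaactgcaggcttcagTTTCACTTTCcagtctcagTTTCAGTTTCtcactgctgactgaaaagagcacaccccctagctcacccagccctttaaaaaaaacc
Cxcl9: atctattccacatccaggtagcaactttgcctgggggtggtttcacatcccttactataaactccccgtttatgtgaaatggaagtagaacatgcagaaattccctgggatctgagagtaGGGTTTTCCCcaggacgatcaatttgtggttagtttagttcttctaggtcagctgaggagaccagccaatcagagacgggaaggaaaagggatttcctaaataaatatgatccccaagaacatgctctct
Cxcl10: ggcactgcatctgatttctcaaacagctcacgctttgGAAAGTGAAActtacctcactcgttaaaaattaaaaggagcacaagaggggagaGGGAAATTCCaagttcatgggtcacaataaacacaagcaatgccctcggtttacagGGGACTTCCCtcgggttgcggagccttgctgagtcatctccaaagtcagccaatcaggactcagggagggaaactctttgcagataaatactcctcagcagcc
Over the 250 bases before each RefSeq start, the ISRE core was found in 2.98% of 32851 promoters and in 3.73% of 2762 promoters of genes tested in DC3. It was in 27 of 184 promoters (14.7%) of the genes past 2-fold higher in IRF3/7, of which 131 of 159 genes were matched, and in 9 of 194 (4.64%) of those past 2-fold lower, of which 149 of 189 were matched. In the type I list it was in 6 of 13 promoters (46.2%). The NF-kB core was in 25.5% and 27.8% of the higher and lower sets, in 24.3% of promoters of tested genes and in 17.6% of all. These shares describe letters in a window and no binding was measured.

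Genes that answer interferon-γ were less uniform. Of 16 genes, 13 had enough UMIs, with a median log2 ratio of 0.68, or 0.08 with a minimum of 100 UMIs. Of these 1 was past 2-fold higher in IRF3/7 (Igtp, a GTPase of intracellular defence) and 1 lower (Cxcl9), beside 6.22% and 7.39% of all genes. Igtp was at 0 CPM in CTRL, 63.4 in COX2i, 119 in COX2i + 5-AZA and 380 in IRF3/7 (1.67, 1.13 to 2.22), and Gbp5, a guanylate-binding protein, at 455, 634, 629 and 1236 CPM (0.97, 0.72 to 1.23). Gbp2 (0.08, -0.17 to 0.32) and Ciita (-0.02, -0.54 to 0.48) lay near 0. In cDC2 the median of this list was 0.23 over 15 genes and in cDC1 -0.31 over 13.

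Among the components of interferon signalling, 2 of 16 were past 2-fold higher, Irf7 and Stat2 (114, 272, 154 and 370 CPM in CTRL, COX2i, COX2i + 5-AZA and IRF3/7; 1.26, 0.76 to 1.77, or 0.98 in cells from droplets of 1 library), and none lower, beside 6.22% of all genes higher. The receptors Ifnar1 (0.27, -0.27 to 0.80), Ifnar2 (0.60, 0.04 to 1.15) and Ifngr1 (0.35, -0.22 to 0.90) stayed within 2-fold.

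**Figure D5:**
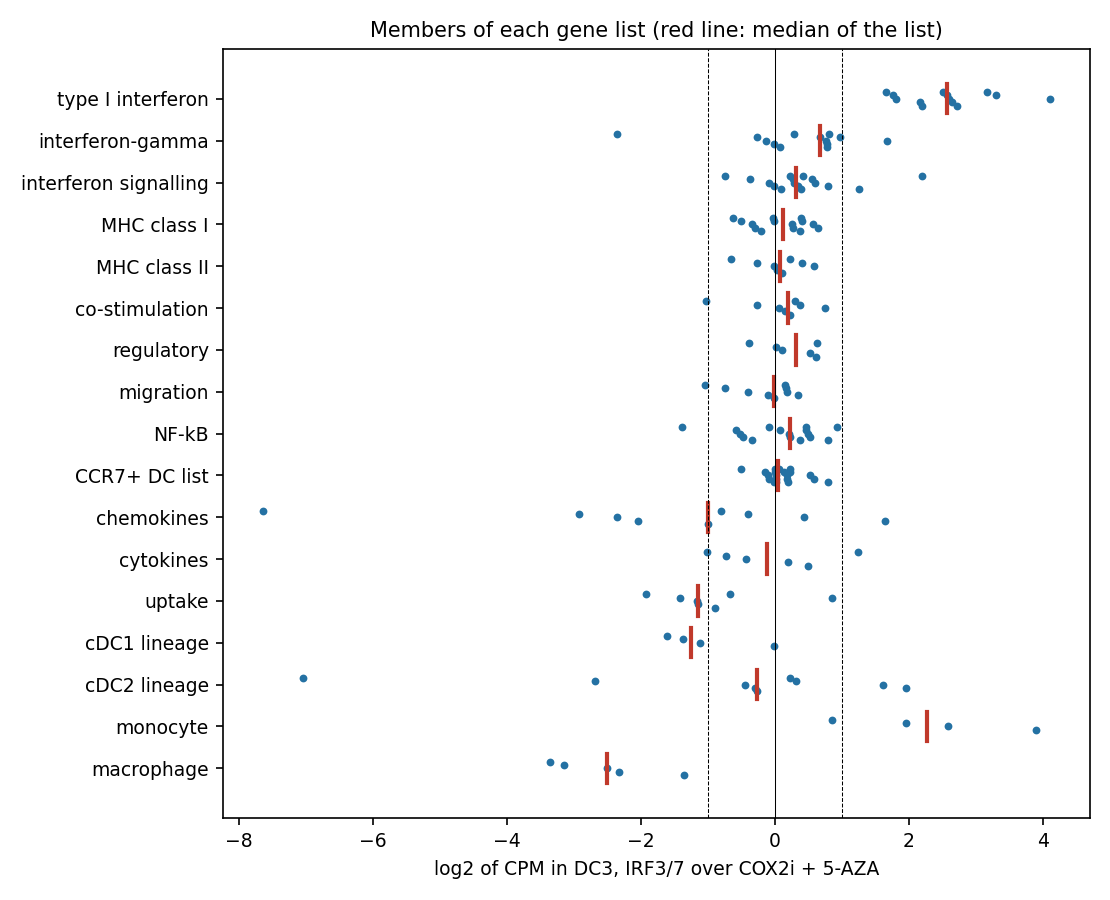
Log2 ratio of CPM in DC3, IRF3/7 over COX2i + 5-AZA, for the members of each gene list with 50 UMIs or more over both libraries, where each point is a gene, the red line is the median of the list and the dashed lines are 2-fold. The 13 genes of the type I interferon list (median 2.57) lie above 2-fold, the chemokines range from -7.64 to 1.64, and the CCR7+ DC list lies between -0.50 and 0.79.

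The study's list of CCR7+ DC genes lay within 2-fold between these libraries, as did most genes tested, although 3 of the 6 class markers did not. Of the markers, Il12b was past 2-fold higher in IRF3/7 and Ccl22 and Fscn1 lower. Of the study's 20 leading genes of CCR7+ DCs, which were chosen on data that include these libraries and so are no independent evidence, 0 were past 2-fold in either direction, beside 6.22% of all genes higher and 7.39% lower, with a median of 0.04 and a range from -0.50 (Cytip) to 0.79 (Traf1). In a list of 20 genes this count is near the background. Ccr7 itself had a log2 ratio of -0.11 (-0.22 to 0.00). It had no UMI in 8 of 66 DC3 of IRF3/7, 0 of 87 of COX2i + 5-AZA, 2 of 28 of COX2i and 1 of 10 of CTRL. At 1500 UMIs per cell the share with a Ccr7 UMI was 86.3%, 97.9%, 89.9% and 78.7% in that order. Among 9 migration genes only Fscn1 was past 2-fold, at 3116 CPM in CTRL, 3205 in COX2i, 5048 in COX2i + 5-AZA and 2462 in IRF3/7 (-1.04, -1.18 to -0.90). COX2i + 5-AZA was the high library for Fscn1, since the ratio of IRF3/7 over COX2i was -0.38, and with equal weight per cell the ratio to COX2i + 5-AZA was within 2-fold (-0.90). Of 16 NF-kB genes, 1 was past 2-fold lower (Tnfaip2, -1.39) and none higher, which is near these shares, and the kinase Map3k14 (0.92, 0.67 to 1.16) and the adaptor Traf1 (0.79, 0.62 to 0.95) were the highest.

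Of 14 MHC class I genes and 8 MHC class II genes with enough UMIs, 0 were past 2-fold, with medians of 0.12 and 0.07, beside 6.22% of all genes higher and 7.39% lower, so that in lists of this size the counts are near the background. H2-K1, a class I heavy chain, was at 1637 CPM in CTRL, 2001 in COX2i, 1778 in COX2i + 5-AZA and 2640 in IRF3/7 (0.57, 0.41 to 0.73), and Tap1, which carries peptides into the endoplasmic reticulum, had a log2 ratio of 0.64 (0.36 to 0.92). The class II chains H2-Aa (13577, 11343, 8840 and 11691 CPM; 0.40) and H2-Eb1 (0.59, 0.52 to 0.66) were lowest in COX2i + 5-AZA. So was the invariant chain Cd74, at 24403, 21609, 16088 and 16413 CPM, with IRF3/7 beside it (0.03, -0.03 to 0.09).

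Among 8 co-stimulatory genes, 0 were past 2-fold higher and 1 lower, Tnfsf9 (4-1BB ligand), at 114, 380, 196 and 96.2 CPM in CTRL, COX2i, COX2i + 5-AZA and IRF3/7 (-1.03, -1.82 to -0.31, or -0.58 with equal weight per cell), and of 6 regulatory genes 0 were past 2-fold in either direction. These counts are near the 6.22% of all genes higher and 7.39% lower. Cd40, which receives the licensing signal from T cells, was at 591, 588, 783 and 1020 CPM (0.38, 0.12 to 0.64). Cd80 (0.15, -0.13 to 0.43) and Cd86 (-0.27, -0.53 to -0.02), the ligands of CD28 and CTLA-4, differed by less. Among the regulatory genes, Cd274, which encodes PD-L1, was at 523 (332 to 785), 914 (745 to 1111), 1012 (916 to 1115) and 1452 CPM (1293 to 1626), highest in IRF3/7 and lowest in CTRL (0.52, 0.30 to 0.74). Pdcd1lg2, which encodes PD-L2, was at 364, 534, 470 and 361 CPM (-0.38, -0.79 to 0.01).

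Cytokine genes were mostly too low to compare, as 6 of 16 in the table had enough UMIs. Il12b was at 682 CPM in CTRL, 742 in COX2i, 211 in COX2i + 5-AZA and 500 in IRF3/7, past 2-fold higher in IRF3/7 than in COX2i + 5-AZA (1.24, 0.82 to 1.67, or 0.86 with equal weight per cell). COX2i + 5-AZA was the low library here, since the ratio of IRF3/7 over COX2i was -0.57. Il12a, which encodes the p35 partner needed for IL-12, had 0 UMIs in DC3 of all 4 libraries, as had Il10. Tgfb1 lay at the limit of 2-fold, lower in IRF3/7 (-1.01, -1.87 to -0.22, or -0.96 with scaling to the median gene and -0.82 in cells with at least 3 markers), and Il1b was at 2297, 3304, 3610 and 2179 CPM (-0.73, -0.88 to -0.58).

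Genes of the prostaglandin pathway bear on celecoxib, but the drug blocks the enzyme and not its transcript. Of 14 genes in the table, 3 had enough UMIs. Ptgs2, which encodes COX2, was at 819 CPM in CTRL, 253 in COX2i, 472 in COX2i + 5-AZA and 207 in IRF3/7 (-1.19, -1.70 to -0.71), where 1 cell held 51.2% of the IRF3/7 UMIs equal weight per cell gave -0.53 and leaving out the highest cell of each library -1.96. Ptger4, the EP4 receptor for prostaglandin E2, was at 318, 326, 430 and 442 CPM (0.04, -0.34 to 0.41). Genes of antigen uptake were lower in IRF3/7 for 4 of 7 with enough UMIs, the Fc receptors Fcgr2b (-1.93) and Fcgr3 (-1.42) and the scavenger receptors Lrp1 (-1.14, or -0.94 with equal weight per cell and -2.93 in cells from droplets of 1 library) and Msr1 (-1.16), and higher for none, beside 7.39% of all genes lower. These 4 also entered only through COX2i + 5-AZA.

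Of the lineage lists, 4 of 13 cDC1 genes, 9 of 14 cDC2 genes and 6 of 7 pan-DC genes had enough UMIs to be compared. Of the 4 cDC1 genes 3 were past 2-fold lower in IRF3/7 (Batf3 -1.12, Naaa -1.61 and Cd24a -1.37), beside 7.39% of all genes, and these 3 entered only through COX2i + 5-AZA. The list median was -1.24, or -0.57 with a minimum of 100 UMIs, and Batf3 was at -0.95 in cells from droplets of 1 library. Of 9 cDC2 genes 2 were lower (Mgl2 and Csf1r) and 2 higher (Clec4a1 1.61, or 2.82 without DC3 of high UMI count, and Clec4a3 1.95). Mgl2, a lectin of cDC2, was at 523 CPM in CTRL, 190 in COX2i, 632 in COX2i + 5-AZA and 4.81 in IRF3/7, that is 1 UMI against 254 in COX2i + 5-AZA (-7.04, -12.35 to -4.55, or -5.29 or below without the highest cells), and in cDC2 its ratio was -3.87. Of 6 pan-DC genes 0 were past 2-fold, Zbtb46, a transcription factor of conventional DCs, being at 455, 317, 346 and 351 CPM (0.02, -0.41 to 0.44). Outside the lists, Anxa3 (-2.21), Vim (-2.19) and Mt2 (-2.15) were among the 10 genes with the largest ratios below 1, and Vim, an intermediate filament, was at 4708, 2680, 2894 and 635 CPM (-2.93 without DC3 of high UMI count).

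Markers of other myeloid cells moved with these differences, and their counts stand beside 6.22% of all genes higher and 7.39% lower. The summed level of 8 monocyte genes in DC3 was 546 CPM in CTRL, 733 in COX2i, 1089 in COX2i + 5-AZA and 4602 in IRF3/7, and 3 of 4 with enough UMIs were past 2-fold higher in IRF3/7, namely Plac8 (2.58), Ms4a4c (1.96) and Chil3 (3.90, where 1 cell held 85.0% of the IRF3/7 UMIs and the ratio without the highest cells was 1.56). Infl_Mono held 4185 CPM of Slfn4, 5545 of Isg15 and 7938 of Plac8 in IRF3/7. That class made up 4335 of 6329 cells in IRF3/7 and 764 of 10032 in COX2i + 5-AZA. The summed level of 11 macrophage genes was 1274, 1077, 2780 and 563 CPM in the same order of libraries, and 5 of 5, none with 50 UMIs in IRF3/7 alone, were past 2-fold lower there, C1qa (159, 154, 791 and 76.9 CPM; -3.36), C1qb (-2.33), C1qc (-3.15), Spp1 (-2.51) and Apoe (-1.36). When DC3 above 2 times the median UMIs of their library were left out, the log2 ratio was 0.41 for Apoe and -1.62 for C1qb. With equal weight per cell it was -1.49 for Spp1 and -1.74 for C1qb, and in cells from droplets of 1 library -3.20 for C1qb and -3.95 for C1qa. In cDC2 the sums were 1461, 1627, 3124 and 8651 CPM for monocyte genes and 2462, 2657, 2189 and 933 CPM for macrophage genes. NK and T cell genes summed to at most 212 CPM in DC3, with Cd3d, Cd3e, Trac, Cd8b1 and Ncr1 at 0 in every library, and Klrd1 was the only one with enough UMIs (1.56). The part of RNA from other cells in the differences above was not tested.

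Within the celecoxib-treated tumours, the addition of 5-azacytidine could be read only roughly, since COX2i held 28 DC3. Of 2148 genes, 129 (6.01%) were past 2-fold higher in COX2i + 5-AZA than in COX2i and 33 (1.54%) lower. DC3 of COX2i + 5-AZA held 402161 UMIs against 110464 in COX2i, so low genes entered more easily through COX2i + 5-AZA. The counts here describe the members that entered. Chemokines were past 2-fold higher for 4 of 9 and lower for 1, with a median log2 ratio of 0.88. Single cells of COX2i set several of these values. Ccl17 had a ratio of 0.60 (0.34 to 0.87), or 1.92 (1.50 to 2.37) without the highest cell of each library, and Ccl22 of 0.88, or 1.06 without it. Ccl5 had a ratio of -0.77, or -0.03 without it, Cxcl9 of 1.06, or 1.16, and Cxcl10 of 2.42 from 12 UMIs in COX2i, of which 1 was left without its highest cell. Type I interferon genes were past 2-fold higher for 0 of 8 and lower for 2, with a median of -0.50, and Isg15 had a ratio of -0.46, or 0.00 without its highest cells. Il12b was lower (-1.81), whereas uptake genes were higher for 4 of 8 and macrophage genes for 4 of 6. The comparison of IRF3/7 with COX2i shares the COX2i library with this one, and in it Isg15 had a ratio of 2.26, or 2.89 without its highest cells, and Ccl5 of 0.87, or 1.61.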

How the data were processed

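Single-cell RNA profiles of CD45+ cells came from 4 libraries, 1 per group, made with the Chromium Flex probe assay on fixed cells. Per the study's methods and the submitters' processing notes, the authors ran Cell Ranger 7.1.0 against mm10 (GRCm38) with the kit's mouse probes, filtered cells on detected genes and on mitochondrial and ribosomal content, kept genes seen in several experiments, removed ribosomal and mitochondrial genes, and named clusters of an integration of these experiments. The deposited values are raw UMI counts, with no normalisation by the authors, for 12584 genes and 34447 cells, beside a cell table with the class names. In all 34447 cells the UMI sum equalled that of the cell table. Each gene is read only where its probes bind. How doublets were treated is not given in the sources used here. No doublet caller was run, and cells of high UMI count were left out as an alternative.

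UMIs were summed over the DC3 of a library and divided by their total (CPM). Ratios between libraries were given as log2 with exact conditional 95% intervals, levels with exact Poisson intervals and shares with exact Clopper-Pearson intervals, all of which cover counting error only. With 1 library per group there was no test and no p-value. A gene was counted past 2-fold when its UMIs over both libraries reached 50, and 3 UMIs per library stood in for a count of 0. Shares of cells with a UMI were also computed at 1500 UMIs per cell, leaving out shallower cells. Named genes were the members of the gene lists, the 10 genes with the largest and the 10 with the smallest ratio of IRF3/7 over COX2i + 5-AZA among those with at least 100 UMIs, and the 8 at either end against cDC1 and against cDC2. The members and lists were chosen with earlier results of these data known. Among the listed genes, Ccl19, Cxcl11, Ifnb1, Il2, Mx1, Mx2, Psme2, Clec7a, Ly6c2, Ccnb1, Mlana, Dct, Tyr and Sox10 were not analysed here. The ratio and its interval were tested on simulated counts without variation between cells, which cannot show how single cells weigh on them. The analysis used Python 3.11.15 with numpy 2.4.6, scipy 1.17.1, pandas 2.3.3 and matplotlib 3.10.9.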

Additional observations from a re-analysis of the deposited data

Results flagged for a closer look

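Among 170 named genes, 9 had ratios of IRF3/7 over COX2i + 5-AZA with intervals on opposite sides of 0 in DC3 and in cDC2. This count was not made over all genes, so no background share stands beside it. The difference between the classes was not tested, and each class is 1 library per group. Of these genes 4 belong to the study's CCR7+ DC list and were within 2-fold in DC3. Cst3, cystatin C, had a log2 ratio of 0.13 (0.08 to 0.18) in DC3 and -1.03 (-1.06 to -1.0) in cDC2. Ramp3, a co-receptor of the calcitonin receptor family, had 0.22 (0.03 to 0.42) in DC3 and -1.25 (-1.50 to -1.01) in cDC2. Tmem123 had 0.18 (0.04 to 0.32) and -0.32 (-0.51 to -0.12), and Myo1g, an unconventional myosin, 0.18 (0.00 to 0.35) and -0.21 (-0.40 to -0.02). In DC3 Tmem123 was at 0.00 in cells from droplets of 1 library and Myo1g at -0.01 with equal weight per cell.

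The other 5 were lower in DC3 of IRF3/7 and higher in its cDC2. Cd86 had a log2 ratio of -0.27 (-0.53 to -0.02) in DC3 and 0.58 (0.43 to 0.72) in cDC2, and Tnfsf9 -1.03 (-1.82 to -0.31) and 0.52 (0.17 to 0.87). Ccl4 had -0.80 (-1.44 to -0.20) in DC3 and 1.01 (0.83 to 1.19) in cDC2, and its DC3 value was 0.24 without the highest cell of each library and 0.23 without cells of high UMI count. Fcgr4, an activating Fc receptor, had -0.89 (-1.51 to -0.32) and 0.58 (0.44 to 0.73). Apoe had -1.36 (-1.88 to -0.87) in DC3 and 0.56 (0.33 to 0.79) in cDC2, and its DC3 value turned to 0.41 without cells of high UMI count.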

How the results depend on the processing

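No paired analysis was possible because each group is 1 library. Under the alternatives run, all 32 ratios of shares stayed within their counting intervals and all 8 counts against cDC1 and cDC2 within 1.5 times their value. The counts past 2-fold followed the UMI minimum. With a minimum of 20 UMIs 298 genes were higher and 596 lower in IRF3/7 (33.3% higher among those called), with 100 UMIs 93 and 73 (56.0%), and with no minimum beyond 1 UMI 581 and 1483 (28.1%), against 45.7% at 50 UMIs. Scaling to the median gene moved this split to 49.1% and the median of all genes from -0.05 to 0.00. Of the list medians, 212 of 220 values moved by less than 1.5 times. Those of chemokines were -0.38 with equal weight per cell and -0.27 without cells of high UMI count, and those of macrophage genes -1.74 and -1.87. The interferon-γ median was 0.08 and the cDC1 lineage median -0.57 with a minimum of 100 UMIs, and the monocyte median was 1.41 with 20 UMIs and 1.27 with none. The summed level of the 6 markers was 16580 CPM in COX2i, 18540 in COX2i + 5-AZA and 12153 in IRF3/7 with equal weight per cell, 19200 in COX2i + 5-AZA and 11908 in IRF3/7 without cells of high UMI count, and 14483 in COX2i and 12527 in IRF3/7 in cells with at least 3 markers. Apoe turned to 0.41 without cells of high UMI count, the only change of sign among the named genes past 2-fold, and 65 values of single genes lay outside their counting interval. Of 52 named genes past 2-fold, 9 fell within it under at least 1 alternative (Apoe, Batf3, Fscn1, Il12b, Lrp1, Ptgs2, Stat2, Tgfb1 and Tnfsf9). A further pair of alternatives was chosen after seeing the data. With cells from droplets of 1 library the marker sum was 11775 CPM in CTRL, 16818 in COX2i + 5-AZA and 10653 in IRF3/7. With each gene's highest cell left out it was 10203 in CTRL, 14200 in COX2i, 16731 in COX2i + 5-AZA and 10664 in IRF3/7. Without that cell, 52 of 52 named genes past 2-fold were still past it, with Chil3 at 1.56 in place of 3.90. The cause of these shifts was not tested. CTRL, with 10 DC3, limits what can be read there.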

Other observations

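Of 2492 genes with enough UMIs in both classes, Areg was the only one past 2-fold in opposite directions in DC3 and in cDC2, and it was singled out after its values were seen. Areg encodes amphiregulin, a ligand of the EGF receptor. In DC3 it was at 0 CPM in CTRL, 190 in COX2i, 14.9 in COX2i + 5-AZA and 375 in IRF3/7, with a log2 ratio of IRF3/7 over COX2i + 5-AZA of 4.65 (3.47 to 6.14) from 78 against 6 UMIs. All 21 UMIs of COX2i came from 1 cell, whereas 11 of 66 cells carried the gene in IRF3/7. In cDC2 the ratio was -1.09 (-1.74 to -0.46). The difference between the classes was not tested.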
